A study of Mus musculus with 27 samples.

Results

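The platelet-derived growth factor (PDGF) genes are the 6 mouse genes that encode the ligand chains and receptors of this growth factor system: the ligands Pdgfa, Pdgfb, Pdgfc and Pdgfd and the receptors Pdgfra and Pdgfrb. They were taken by symbol from the probe annotation, each was measured by 1 probe set, and they are 6 of 19937 genes measured on 27 Affymetrix arrays. In culture, the groups were 6 lines of immortalized neural stem cells labelled p53 mutant (lines 3, 28, 31, 59, 95 and 116) and 4 labelled WT (lines 119, 120, 123 and 331), set against 2 cultures of normal neural stem cells (NSCs) labelled WT. The tissue samples were 12 tumors, 3 each of lines 1 (WT), 31 (p53 mutant), 59 (p53 mutant) and 123 (WT), set against 3 pieces of subcutaneous tissue (SubQ) labelled WT. All 27 samples carry the host strain label CB17/ICR-Prkdcscid/IcrCrl, severely immunodeficient mice. Age, sex, culture medium, the way the lines were immortalized and the p53 allele are not given in the labels. Each line in culture was profiled once, line 1 only as tumors, and the titles call the arrays of a group biological replicates without saying whether these were separate animals. The p-values rest on how far these samples spread.

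PDGF ligands are secreted dimers, and their receptors are tyrosine kinases of the cell surface that pair up on binding a ligand and phosphorylate each other. PDGF-A and PDGF-B are made in a form that is cut inside the cell, whereas PDGF-C and PDGF-D carry an extra CUB domain that must be cut off outside it before they can bind. In the brain, Pdgfra is best known in oligodendrocyte progenitors and Pdgfrb in pericytes, and in other tissues both mark fibroblasts and related mesenchymal cells.

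The levels are log2 values made by the authors with RMA, the robust multi-array average. Cell arrays and tissue arrays appeared to have been normalized as 2 separate sets, so tests were made within each set. The median over all genes of an array was 7.18 to 7.28 for lines, 7.25 to 7.27 for NSCs, 5.66 to 5.75 for tumors and 5.82 to 5.87 for SubQ. The SubQ arrays had a narrower signal range, with an SD over genes of 0.869 to 1.02 against 1.63 to 1.79 in tumors, and Actb, the cytoskeletal actin gene, read 8.35 to 9.83 there against 11.92 to 12.63 in tumors. With no detection call in the files, the 95th percentile of 1194 odorant and vomeronasal receptor genes, which belong to sensory neurons, served as a background level on each array. It lay at 6.64 to 6.89 in the lines, 6.72 to 6.91 in the NSCs, 4.99 to 5.44 in the tumors and 6.30 to 6.49 in SubQ.

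The labelled cell types were checked against marker genes. Of 9 neural stem and progenitor markers, all lay above the receptor level on both NSC arrays, and 4 did on every array of the lines. Against the NSCs, limma (adjusted p under 0.05) called 5 of these 9 markers lower in the lines and 0 higher, and 4 were not called. Sox2, a transcription factor of neural stem cells, read 7.16 to 9.01 in the lines against 9.56 and 9.80 in the NSCs. Nes, another gene used to mark these cells, overlapped: it read 7.96 to 10.39 in the lines against 9.78 and 9.79 in the NSCs. Olig2, the oligodendrocyte lineage factor, read 5.98 to 6.38 in the lines, below the receptor level, against 9.63 and 10.07 in the NSCs. In the tumors all 10 macrophage markers lay above the receptor level on every array, and none did on all 3 SubQ arrays; the mean level of that list was 7.66 to 8.94 in the tumors and 5.94 to 6.25 in SubQ.

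The stretch of 250 bases before the transcription start is shown for the ligand genes Pdgfc and Pdgfd, which were called together in the lines, and for Pdgfra, which varied most. The sequences are RefSeq's, on GRCm38.p6, plus strand, 5′ to 3′, and capitals mark a match to the TATA box (TATAAA).
Pdgfc, chr3:81036166-81036415: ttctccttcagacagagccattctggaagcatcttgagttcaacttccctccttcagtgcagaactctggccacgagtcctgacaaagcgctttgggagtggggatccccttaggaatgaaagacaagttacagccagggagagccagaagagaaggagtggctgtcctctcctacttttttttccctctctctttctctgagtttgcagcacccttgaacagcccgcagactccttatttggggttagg
Pdgfd, chr9:6168236-6168485: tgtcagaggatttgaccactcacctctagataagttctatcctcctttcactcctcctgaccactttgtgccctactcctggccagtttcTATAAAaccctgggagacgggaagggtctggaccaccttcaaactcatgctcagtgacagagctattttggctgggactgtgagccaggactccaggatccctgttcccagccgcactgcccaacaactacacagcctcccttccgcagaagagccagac
Pdgfra, chr5:75152001-75152250: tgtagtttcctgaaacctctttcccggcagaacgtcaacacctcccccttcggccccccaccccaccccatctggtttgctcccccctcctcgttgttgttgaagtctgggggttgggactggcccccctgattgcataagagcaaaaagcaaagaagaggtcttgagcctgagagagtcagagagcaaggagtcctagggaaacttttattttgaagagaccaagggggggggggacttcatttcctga
Pdgfd held 1 TATAAA, with its first base at position -160 from the start, and Pdgfc and Pdgfra held none. On either strand, TATAAA stood in 12.4% of 32851 mouse promoter windows of that length. The GC box (GGGCGG, in 32.7% of windows) and the AP-1 site (TGANTCA, in 6.75%) had no match in these 3 windows on either strand.

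Immortalized lines expressed Pdgfc, Pdgfd and Pdgfrb at higher levels than normal NSCs. These 3 of the 6 genes were called higher by limma at an adjusted p under 0.05, against 6.79% of all genes, and none was called lower. In 4 genes (Pdgfa, Pdgfc, Pdgfd and Pdgfrb) all 10 lines lay above both NSCs, against 10.1% of all genes. Pdgfb, Pdgfra and Pdgfa did not pass the test.

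**Figure D1:**
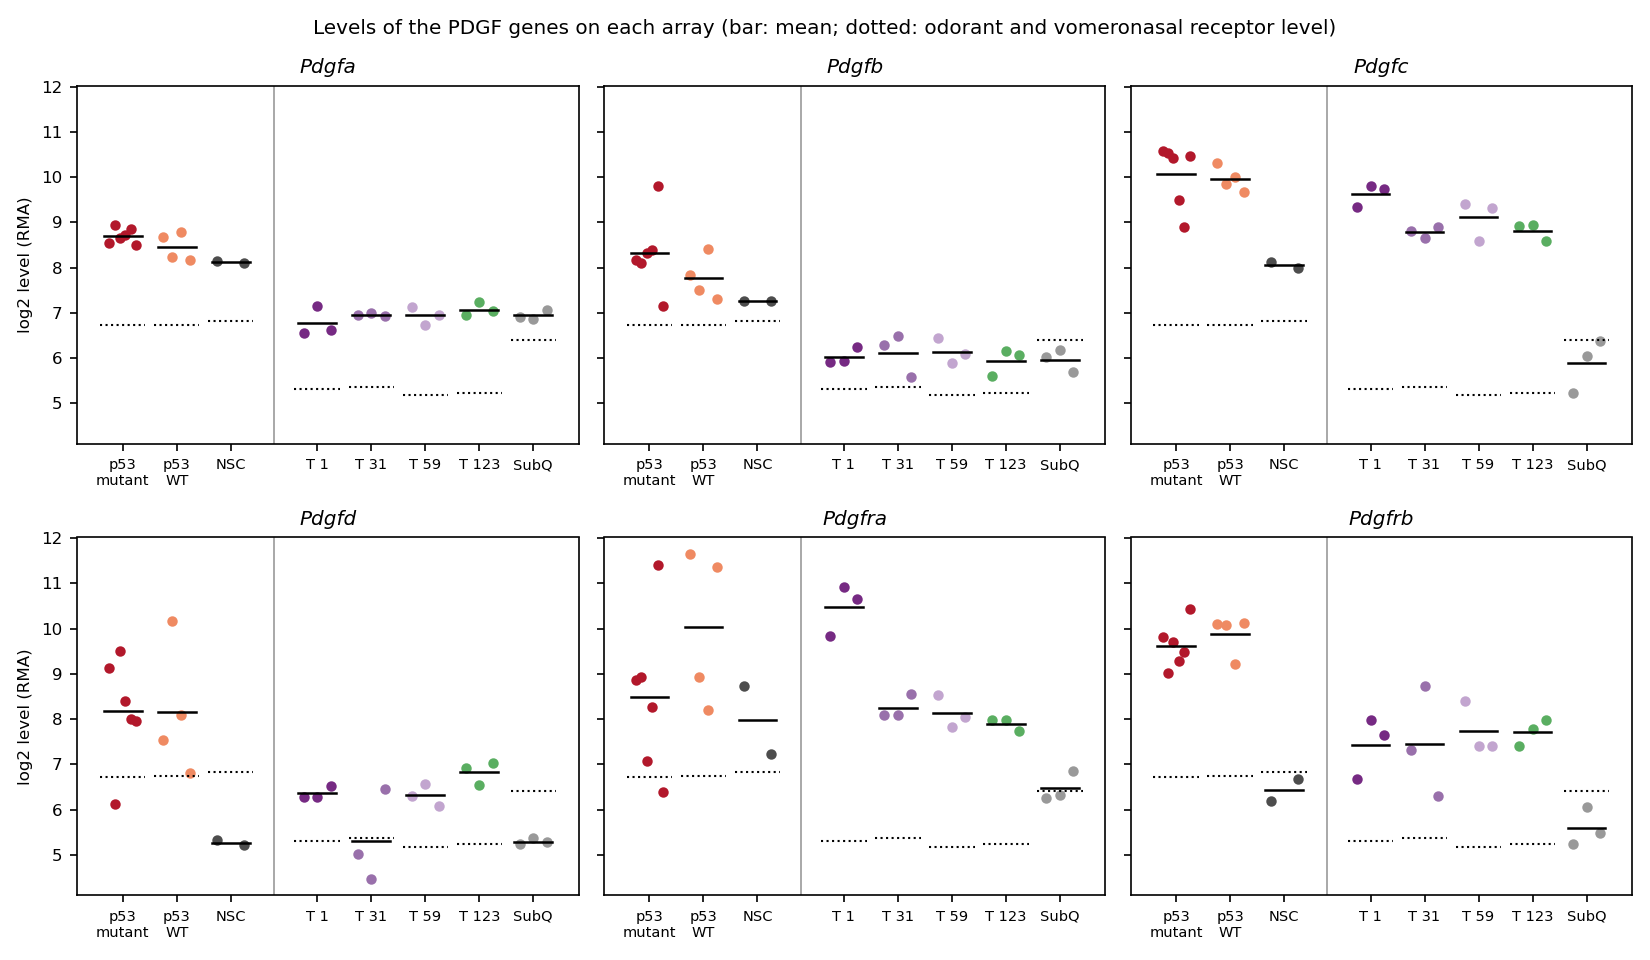
Log2 levels of the 6 genes on each array, by group, with group means as bars and the mean receptor level of the group as a dotted line; cell arrays are left and tissue arrays right of the vertical line, and T stands for tumor line. Pdgfrb lay between 9.02 and 10.43 in the lines and at 6.19 and 6.68 in the NSCs.

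Among the ligands, Pdgfc, whose product acts through PDGF receptor alpha, ranged from 8.90 (line 95) over a median of 10.16 to 10.57 (line 3) in the lines, against 8.13 and 7.999 in the NSCs. All lines lay above both NSCs. The difference was 1.95 ± 0.36 (log2, SE; n = 10 lines and 2 NSCs), or 3.88-fold, with a limma adjusted p of 0.00209.

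Pdgfd, whose product acts mainly through PDGF receptor beta, ranged from 6.13 (line 28) over a median of 8.04 to 10.17 (line 120) in the lines, against 5.32 and 5.22 in the NSCs. Both NSC values, and that of line 28, lay under the receptor level. The mean of the lines was therefore at least 2.56-fold higher, a bound that does not hold for line 28. The fitted difference was 2.90 ± 0.79 (adjusted p = 0.0241, limma). Without the first NSC it was 2.95 with an adjusted p of 0.165, and without the second 2.85 with 0.188.

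Pdgfa, a ligand of PDGF receptor alpha, had the smallest SD of the 6 genes over the lines (0.248, against a median of 0.182 over all genes), from 8.17 (line 331) over a median of 8.66 to 8.94 (line 28) in the lines, against 8.15 and 8.11 in the NSCs. The groups did not overlap, and the difference of 0.48 ± 0.17 had a limma adjusted p of 0.0862. It was 0.52 with an adjusted p of 0.0476 without line 120, and 0.53 with 0.0306 without line 331.

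Pdgfb, which binds both receptors, ranged from 7.16 (line 116) over a median of 8.13 to 9.80 (line 95) in the lines, against 7.26 and 7.27 in the NSCs. Line 116 lay below both NSCs. The difference was 0.83 ± 0.49 (limma adjusted p = 0.33).

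Of the receptors, Pdgfrb ranged from 9.02 (line 28) over a median of 9.76 to 10.43 (line 116) in the lines, against 6.19 and 6.68 in the NSCs, both under the receptor level. No line came within 2 log2 units of the NSCs. On average the lines were at least 7.5-fold higher, and the fitted difference was 3.29 ± 0.32 (limma adjusted p = 8.37e-06).

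Pdgfra gave another picture. It read 11.65 in line 119, 11.41 in line 95 and 11.37 in line 331, then 8.93 in line 28, 8.92 in line 120, 8.86 in line 3, 8.28 in line 59, 8.21 in line 123, 7.07 in line 31 and 6.39 in line 116, against 8.73 and 7.23 in the NSCs. Line 116 lay under its array's receptor level, 3 lines stood more than 2 log2 units above all others, and the groups overlapped. The difference of 1.13 ± 1.21 had an interval of -1.49 to 3.74 (limma adjusted p = 0.654). It was 1.88 without the first NSC and 0.38 without the second. Pdgfra had an SD of 1.83 over the lines, and 0.105% of all genes had a larger one; for Pdgfd the SD was 1.21 and that share 0.767%. Each line was measured once, so neighbours in this order cannot be told apart by their own spread.

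A list of 14 neighbours of Pdgfra on its chromosome varied less, with SDs over the lines of 0.108 to 0.378. The list leaves out some measured genes that lie between its members, and places were counted in RefSeq order. Scfd2, 6 measured genes away, read 7.72, 7.39 and 7.26 in lines 95, 119 and 331 and at most 7.02 in the other lines; it was singled out after its values were seen. Kit, the next measured gene and a related receptor kinase, had 7.04 in line 119 and 6.05 to 6.50 in the other lines. Against the NSCs, 2 of the 14 neighbours were called higher, Clock and Tmem165, and 1 lower, Lnx1. Clock averaged 10.34 in the lines and 9.70 in the NSCs, and Tmem165 10.87 in the lines and 10.40 in the NSCs.

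The genes that work with PDGF changed in both directions; of all genes, 6.79% were called higher and 8.22% lower. Of 10 processing proteases and co-receptors, 4 rose and 1 fell in the lines, with a median change of 0.84 against -0.01 over all genes. Sparc, a matrix protein that binds PDGF, averaged 12.93 in the lines and 11.23 in the NSCs, and the co-receptor gene Nrp2 8.85 in the lines and 7.28 in the NSCs. Of 13 measured negative regulators, 4 rose and 5 fell, Spry4 and Spry2 (inhibitors of receptor kinase signalling) by the most: Spry4 averaged 7.29 in the lines and 10.30 in the NSCs, and Spry2 7.87 in the lines and 10.40 in the NSCs. Of 17 early genes induced by PDGF, 6 rose and 1 fell; Ccl2, a chemokine gene, averaged 9.74 in the lines and 7.08 in the NSCs, and Plaur, the urokinase receptor gene, 8.87 in the lines and 6.67 in the NSCs. Of 7 measured related ligands 1 rose and 2 fell: Csf1, the macrophage growth factor gene, averaged 10.09 in the lines and 6.96 in the NSCs, and Kitl, the gene of the Kit ligand, 7.52 in the lines and 9.26 in the NSCs. Of 6 receptor relatives 1 rose, Csf1r, at 6.24 in the lines and 5.93 in the NSCs, both below the mean receptor level. Of 29 signalling adaptors and enzymes, 4 rose and 2 fell, with a median change of -0.02. Shc1, an adaptor, averaged 8.57 in the lines and 6.91 in the NSCs, and the kinase gene Fyn 9.89 in the lines and 11.67 in the NSCs.

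Markers of other cells were counted beside these genes, where 6.79% of all genes were called higher and 8.22% lower. Of 9 oligodendrocyte progenitor markers 6 were lower in the lines and none higher, and of 10 fibroblast and mesenchymal markers 3 were higher and none lower. The mean level of the oligodendrocyte progenitor list was 6.22 to 6.98 in the lines and 8.98 to 9.18 in the NSCs, and that of the fibroblast list 7.05 to 8.72 in the lines and 6.59 to 6.81 in the NSCs. Of 10 pericyte and smooth muscle markers 1 was higher, 1 lower and 8 not called, with a median change of 0.03 against -0.01 over all genes. The mean level of that list was 7.32 to 7.85 in the lines and 6.64 to 6.78 in the NSCs. Their part in the differences of Pdgfra and Pdgfrb was not tested, and in bulk samples fewer cells of a type and less RNA per cell cannot be told apart.

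The p53 label of the lines went with no called difference. None of the 6 genes was called between p53 mutant and WT lines, where limma called 0.0201% of all genes and no PDGF gene had an unadjusted p under 0.05. Pdgfra had the widest gap, with a median of 8.57 in the mutant lines (6.39 to 11.41) and 10.15 in the WT lines (8.21 to 11.65), and both groups held lines above 11 and below 9. The difference was -1.55 ± 0.97, with an interval of -3.69 to 0.58 (limma adjusted p = 0.721), and it was -2.16 without line 123. Pdgfrb differed by -0.26 ± 0.27 (limma adjusted p = 0.863). Set against the NSCs apart, the 6 mutant lines had 4 genes called higher (Pdgfa, Pdgfc, Pdgfd and Pdgfrb, with 6.67% of all genes) and the 4 WT lines 2 (Pdgfc and Pdgfrb, with 6.38%). The 2 comparisons share the NSCs. In the mutant lines Pdgfa lost its call without line 28, 31, 59 or 95 or either NSC (adjusted p 0.0557 to 0.223), Pdgfd without line 3, 31, 59, 95 or 116 or either NSC (0.0503 to 0.223), and Pdgfc without the second NSC (0.0601). In the WT lines Pdgfc lost it without either NSC (0.0687 and 0.0908), and Pdgfd, at 2.88 ± 0.91 with a limma adjusted p of 0.0576, gained it without line 28 (0.0265) or line 331 (0.0382).

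**Figure D2:**
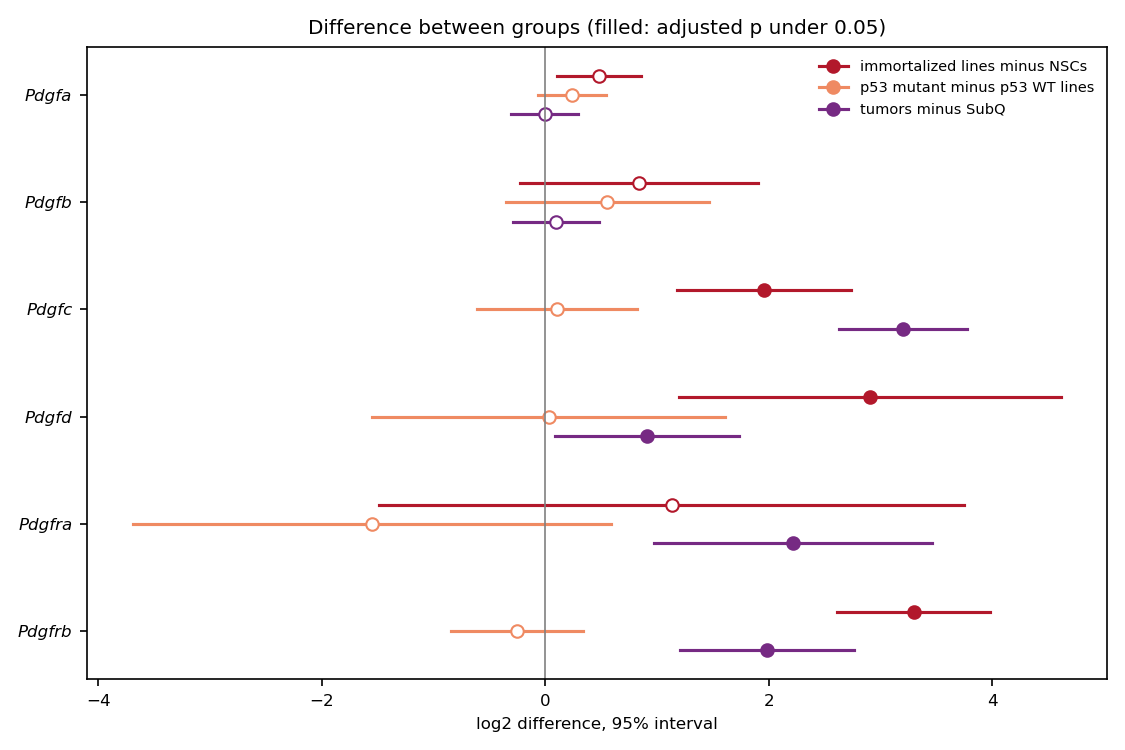
Log2 difference of each gene between groups with its 95% interval, for the lines minus NSCs, p53 mutant minus WT lines and tumors minus SubQ; filled points had a limma adjusted p under 0.05. The p53 contrast has no filled point, and Pdgfc, Pdgfd and Pdgfrb are filled in the other 2.

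Across the 10 lines, members were compared pair by pair. None of the 15 pairs passed a permutation test after Benjamini-Hochberg adjustment. The closest was Pdgfa with Pdgfrb, which ran in opposite directions: Pearson's r was -0.75 (2-sided permutation p = 0.0112, adjusted 0.168) and Spearman's rho -0.84 (permutation p = 0.00363, adjusted 0.0544). Without the 2 lines farthest from the median of Pdgfa r was -0.84, and within the 6 mutant lines it was -0.88. All lines share the array platform and the normalization of the cell set.

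The genes whose levels followed a member most closely over the 10 lines were found among 1382 genes with an SD of at least 0.5. For Pdgfra these were Ahr (r = 0.98), the aryl hydrocarbon receptor gene, and Pitpnc1 (r = 0.93). For Pdgfd they were Ddi1 (r = 0.95) and Rorb (r = 0.87), for Pdgfb S100a3 (r = 0.94) and Pcdh17 (r = 0.93), and for Pdgfc Fyb2 and Ccdc80 (r = 0.85 each). These values describe 10 arrays and were picked as the highest of many.

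Tumors showed more Pdgfc, Pdgfra and Pdgfrb than subcutaneous tissue in all 12 samples. With Pdgfd, for which no fold can be given, 4 of the 6 genes were called higher, against 30.7% of all genes; in 3 genes all 12 tumors lay above all 3 SubQ samples, against 21.9% of all genes. Pdgfa and Pdgfb were not called. Of all genes, 76.5% were called in either direction (45.8% lower), and tissue and the narrower signal range of the SubQ arrays cannot be told apart. Markers of other cells differed too: of 10 fibroblast and mesenchymal markers 6 were higher in the tumors and none lower, of 10 endothelial markers 4 were higher and none lower, and of 10 pericyte and smooth muscle markers 3 were higher and 4 lower. All 6 adipocyte and 6 of 7 skeletal muscle markers were lower. The mean level of the fibroblast list was 7.61 to 8.78 in the tumors and 7.002 to 7.57 in SubQ, and that of the pericyte list 6.33 to 6.98 in the tumors and 6.20 to 6.53 in SubQ. Their part in the differences of Pdgfc, Pdgfra and Pdgfrb was not tested.

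Pdgfc ranged from 8.58 over a median of 8.93 to 9.79 in the tumors, against 5.23, 6.05 and 6.38 in SubQ. No values overlapped. The difference was 3.20 ± 0.27 (limma adjusted p = 2.36e-08), and in SubQ the gene passed the receptor level on 1 of 3 arrays.

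Pdgfd ranged from 4.47 over a median of 6.37 to 7.02 in the tumors, against 5.23, 5.36 and 5.28 in SubQ. The first and second tumor of line 31 lay below all SubQ samples, so the groups overlapped. These 2 tumors and all SubQ samples lay under the receptor level of their arrays. The tumor mean of 6.20 was itself below the mean SubQ receptor level of 6.41, so no fold is given. The fitted difference of 0.91 ± 0.39 had a limma adjusted p of 0.0424, which rose above 0.05 in 12 of the 15 fits that left out 1 array (0.0515 to 0.11), all but those without tumor 1 or 2 of line 31 or tumor 3 of line 59.

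Pdgfa read 6.55 to 7.24 in the tumors (median 6.96), against 6.90, 6.87 and 7.06 in SubQ. The difference was -0.01 ± 0.14 (limma adjusted p = 0.971). Quantile normalization turned it into a called decrease, by -1.12 with an adjusted p of 2.94e-06. Pdgfb read 5.58 to 6.50 in the tumors (median 6.08), against 6.02, 6.18 and 5.69 in SubQ, where all values lay under the receptor level (difference 0.09 ± 0.18, limma adjusted p = 0.652).

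Pdgfrb ranged from 6.29 over a median of 7.53 to 8.73 in the tumors, against 5.24, 6.06 and 5.49 in SubQ, all under the receptor level. The groups did not overlap, and on average the tumors were at least 2.26-fold higher. The fitted difference was 1.99 ± 0.37 (limma adjusted p = 0.000112). The lowest and the highest tumor were both of line 31. The lowest, at 6.29, lay below the mean SubQ receptor level of 6.41, so the bound does not hold for it.

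Pdgfra ranged from 7.74 over a median of 8.09 to 10.91 in the tumors, against 6.25, 6.32 and 6.85 in SubQ. The groups did not overlap, and the 3 highest tumors were those of line 1. On 2 of the 3 SubQ arrays Pdgfra lay under the receptor level. The difference was 2.21 ± 0.59 (limma adjusted p = 0.00263), and 1.43 with an adjusted p of 0.0367 after quantile normalization. Line by line, the genes called higher than SubQ were 4 in line 1 (with 28.4% of all genes), 3 in line 31 (27.9%), 4 in line 59 (30.1%) and 4 in line 123 (29.4%), Pdgfd being the one not called in line 31. Without tumor 2 of line 59 Pdgfd had an adjusted p of 0.0575 in that line. These 4 comparisons share the SubQ samples.

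Other genes of the system also differed from SubQ; of all genes, 30.7% were called higher in the tumors and 45.8% lower. Of 29 adaptors and enzymes 21 rose and 2 fell, with a median change of 1.11 against -0.28 over all genes, and of 10 proteases and co-receptors 7 rose and 1 fell. Pik3ca, a catalytic subunit of phosphoinositide kinase, averaged 8.86 in the tumors and 6.29 in SubQ, and Fyn 8.30 in the tumors and 6.18 in SubQ. Of 17 early genes 10 rose and 3 fell; Ccl2 averaged 8.44 in the tumors and 5.70 in SubQ, and Myc, a growth-promoting transcription factor gene, 8.84 in the tumors and 6.12 in SubQ. Of 13 negative regulators 8 rose and 1 fell; the phosphatase gene Acp1 averaged 8.71 in the tumors and 6.19 in SubQ, and Errfi1, an inhibitor of receptor kinases, 8.81 in the tumors and 6.64 in SubQ. Plat, the gene of tissue plasminogen activator, which cuts PDGF-C, averaged 8.06 in the tumors and 5.77 in SubQ (difference 2.29, limma adjusted p = 1.74e-05). Sparc averaged 12.65 in the tumors and 8.87 in SubQ. Of 7 related ligands 3 rose and 1 fell; Vegfc averaged 6.98 in the tumors and 5.67 in SubQ, and Csf1 7.49 in the tumors and 6.41 in SubQ. Of 14 neighbours of Pdgfra 5 rose and 5 fell; Tmem165 averaged 9.30 in the tumors and 6.34 in SubQ, and Fip1l1 8.72 in the tumors and 6.71 in SubQ. Of 6 receptor relatives 2 rose and 2 fell; Flt1, a VEGF receptor gene, averaged 7.004 in the tumors and 6.16 in SubQ. Csf1r, the macrophage growth factor receptor gene, averaged 8.19 in the tumors and 6.01 in SubQ. It is itself on the list of 10 macrophage markers, of which 9 were called higher in the tumors.

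The tumor lines differed in Pdgfra. It was the 1 gene of 6 called by the moderated F test among the 4 lines (adjusted p = 0.000368), which called 5.07% of all genes. Pdgfra read 9.85, 10.91 and 10.66 in tumors of line 1, against 8.10, 8.09 and 8.55 in line 31, 8.53, 7.82 and 8.04 in line 59 and 7.98, 7.98 and 7.74 in line 123. All 3 tumors of line 1 lay above the 9 others, as in 2.71% of all genes. Line 1 minus the mean of the other lines was 2.38 ± 0.21, or 5.21-fold (limma adjusted p = 6.78e-05).

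**Figure D3:**
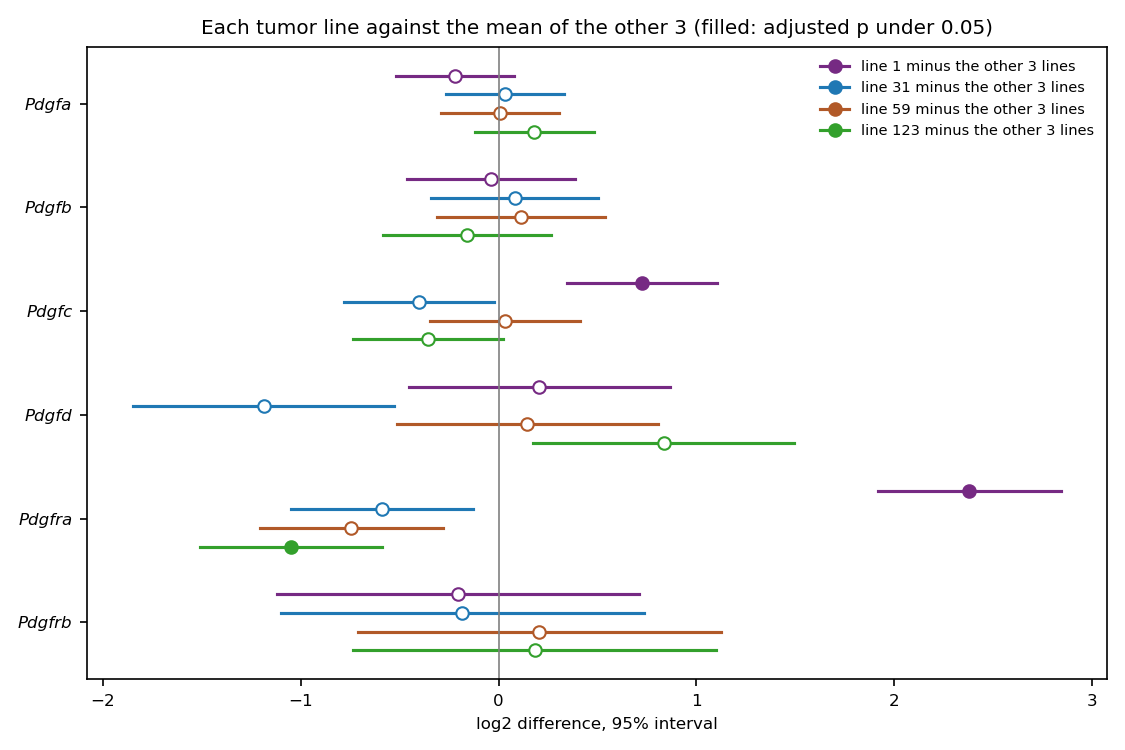
Log2 difference of each gene between the tumors of 1 line and the mean of the other 3 lines, with its 95% interval; filled points had a limma adjusted p under 0.05. Pdgfra of line 1 stands at 2.38, and the Pdgfra points of the other lines lie between -1.05 and -0.59.

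In line 1 tumors Pdgfc was called too, so 2 of 6 genes were higher there, against 2.33% of all genes. It read 9.34, 9.79 and 9.74 in line 1 and 8.58 to 9.41 in the other tumors, which overlapped. The difference of 0.72 ± 0.17 had a limma adjusted p of 0.0349, and it was lost, at 0.0514 to 0.176, in 6 of the 12 fits without 1 tumor: those without tumor 2 or 3 of line 1, tumor 1 or 2 of line 31, or tumor 1 or 3 of line 123. Line 123 had 1 gene called lower, Pdgfra, against 0.221% of all genes, with a difference of -1.05 ± 0.21 (limma adjusted p = 0.0424). The mean it was set against includes line 1. Pdgfra averaged 7.90 in line 123, 8.25 in line 31, 8.13 in line 59 and 10.47 in line 1. The adjusted p reached 0.05 or more, up to 0.266, in 8 of those 12 fits. The exceptions were the fits without tumor 1 of line 1, tumor 2 or 3 of line 31 or tumor 2 of line 59. The Pdgfra values of line 123 tumors overlapped with those of line 59. In line 31, where 1.39% of all genes were called, and line 59, with 1.17%, none of the 6 genes was called. Pdgfd read 5.02, 4.47 and 6.44 in line 31 and 6.08 to 7.02 in the other tumors (difference -1.19 ± 0.30, limma adjusted p = 0.0833). Without tumor 3 of line 31 this difference was -1.75 with an adjusted p of 0.000754, Pdgfd was called higher in line 123 (1.02, 0.0093), and the F test called Pdgfd (0.000674). Without tumor 2 of line 59 the F test called Pdgfc (0.0272). Without tumor 1 of line 1 Pdgfra was called lower in line 59 (-0.85, 0.0324), again against a mean that includes line 1. Pdgfrb spread over 2.44 log2 units within line 31, more than the 0.31 between the highest and lowest line means.

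None of the 14 neighbours of Pdgfra was called in line 1 tumors, with a median change of 0.23 against 0.03 over all genes. Among regulators, Cblb, a ubiquitin ligase gene, averaged 8.79 in line 1 and 7.24 in the other tumors (difference 1.55, limma adjusted p = 0.000402), and Spry2 averaged 6.99 in line 1 and 5.93 in the others. Of the early genes, Cxcl1, a chemokine gene, averaged 7.98 in line 1 and 6.598 in the others, and Egr1, a transcription factor gene, 6.20 in line 1 and 7.16 in the others. The co-receptor gene Nrp1 averaged 8.62 in line 1 and 7.87 in the others, and Vegfc 6.04 in line 1 and 7.30 in the others. None of the 29 adaptors and enzymes was called. Beside this, 2 of 10 fibroblast, 2 of 10 endothelial, 2 of 10 pericyte and smooth muscle and 2 of 4 platelet markers were higher in line 1 and 3 of 10 macrophage markers lower (2.29% of all genes were called lower), and their part in the Pdgfra difference was not tested. The mean level of the fibroblast list was 8.47 to 8.78 in line 1 tumors and 7.61 to 8.43 in the others, and that of the endothelial list 7.04 to 7.30 in line 1 and 6.03 to 6.58 in the others. Pecam1, the endothelial adhesion gene, read 7.77 to 7.90 in line 1 tumors and 6.69 to 7.63 in the others.

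Over the 12 tumors, the genes most like Pdgfra were Crhbp and Tfpi2 (r = 0.97 each), and for Pdgfrb they were Lrp1 (r = 0.97), a receptor gene whose product interacts with PDGF receptor beta, and Aup1 (r = 0.92). For Pdgfd they were Gap43 (r = 0.93) and Anln (r = 0.92). These genes were picked as the highest of 1766 genes with an SD of at least 0.5. An r above 0.9 was reached by 53 of the 1766 with Pdgfra, 4 with Pdgfrb and 4 with Pdgfd. The tumors of a line are not independent of each other in these values.

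Lines 31, 59 and 123 were profiled both as tumors and in culture, and these 12 arrays were set side by side after joint quantile normalization, as a description with no test. Pdgfra lay above its own culture in all 9 tumors, as did Pdgfc, against 15.7% of all genes; Pdgfb lay below in all 9, against 23.9%. Pdgfra read 8.54, 8.57 and 8.93 in line 31 tumors and 5.99 in culture, 8.84, 8.22 and 8.53 in line 59 tumors and 7.16 in culture, and 8.38, 8.52 and 8.11 in line 123 tumors and 6.95 in culture. The tumor mean exceeded the culture by 2.69, 1.37 and 1.39 in these lines. The tumors of all 3 lines thus lay within about 1 log2 unit of each other, and line 31 had the lowest culture.

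**Figure D4:**
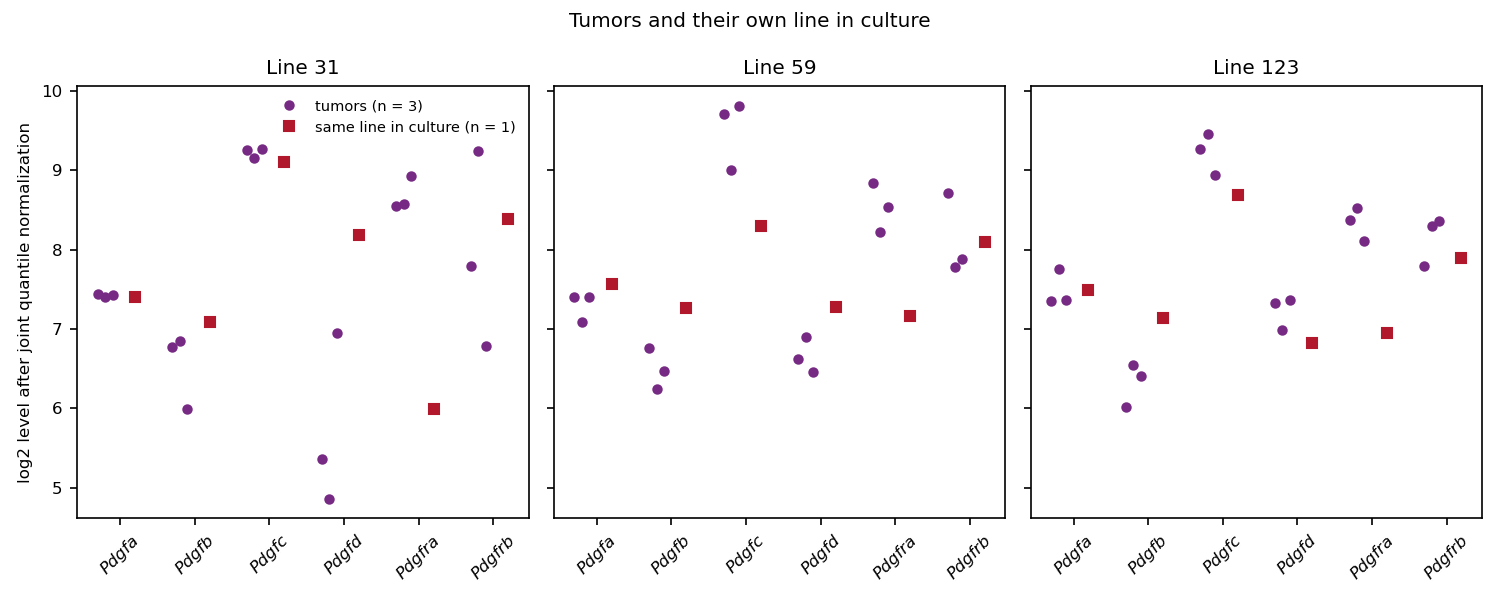
Log2 levels of the 6 genes after joint quantile normalization in 3 tumors (circles) and in the culture (square) of lines 31, 59 and 123. All circles of Pdgfra lie above the square of the same line, and all circles of Pdgfb below it.

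Pdgfc exceeded the culture by 0.12 in line 31, 1.21 in line 59 and 0.53 in line 123; with arrays centred on their medians the value for line 31 was -0.15. Pdgfb was lower than in culture, by -0.55, -0.77 and -0.82. Pdgfd differed by -2.46 in line 31, -0.62 in line 59 and 0.40 in line 123, and so took different directions. Pdgfrb differed by -0.44, 0.03 and 0.26, within the spread of the tumors of each line. All 10 macrophage markers lay above the receptor level on every tumor array, and 1 of 10 did on every array of the lines. Of 10 fibroblast and mesenchymal markers, 9 did on every tumor array and 6 on every array of the lines. Of 10 pericyte and smooth muscle markers, 7 and 4 did. These counts cover all 12 tumors and all 10 lines, not only lines 31, 59 and 123. The receptor level itself was 4.99 to 5.44 in the tumors and 6.64 to 6.89 in the lines. The part of these markers in the values was not tested. Tumor against culture is also tissue set against cell set, so tissue and array set cannot be told apart.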

How the data were processed

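RNA of 27 samples was measured on Affymetrix arrays, 1 per sample. The deposited values are log2 levels per probe set, which the authors made with RMA, per the submitters' processing notes, which also name GCOS and Affymetrix Expression Console; versions and the genome build are not given in the sources used here. Of 34760 probe sets, 21640 had 1 gene and were used. Genes with several (954) took the one with the highest mean, giving 19937 genes. Cell and tissue arrays shared no equal value in 180 pairs, while 66 cell pairs shared 28 to 83 and 105 tissue pairs 41 to 626, so tests stayed within each set. limma 3.58.1 in R 4.3.3 (lmFit, eBayes) was run on all genes, with Benjamini-Hochberg adjustment and calls below an adjusted p of 0.05; the code was tested on simulated data. The number of arrays limits the precision. A fold against a group wholly under the receptor level is a bound for the mean of the other group against that level. Correlations had 100000 permutations. The rest used Python 3.11.15, numpy 2.4.6, pandas 2.3.3, scipy 1.17.1 and matplotlib 3.10.9. Groups came from the labels. Named genes were all 6 members, the 2 called genes of each pathway list with the largest change, and the 2 genes most like each member with an SD of at least 0.5. The list genes are given for lines against NSCs, tumors against SubQ and line 1 against the other tumor lines. Scfd2, Kit, Lnx1, Sox2, Nes, Olig2 and Pecam1 were named outside this rule, after their values were seen, and Actb as a check. The members and the 18 gene lists were chosen with earlier results of these data known. Same-numbered samples showed no steady pairing: their deviations correlated at -0.28 to 0.34 in 30 tissue pairs and at 0.04 and 0.08 in 2 cell pairs. The cell pairs cannot settle this, since the deviations of the 2 NSCs mirror each other and each number among the lines is a different line. Alternatives were other probe set summaries, filters, eBayes settings, normalizations, blocks and fits without 1 array.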

Additional observations from a re-analysis of the deposited data

Results flagged for a closer look

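Pdgfb in line 95 stood apart from the other 9 lines: its gap to the next line was 0.524 of the whole range. Pdgfrb in line 123 was the low value of the 4 p53 WT lines, with a gap of 0.957 of their range. Of 18 sets of lines examined for such values, about 1 in 20 is flagged by chance. Pdgfra differed among the 4 tumor lines, with a moderated F adjusted p of 0.000368 (limma).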

How the results depend on the processing

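Of 407 values under another setting, 390 were counted as unchanged, and of 808 with 1 array left out, 722 were. For a gene's difference this means the same side of the threshold and, outside the F test, the same direction. The values also include numbers of genes called, which counted as unchanged within a set ratio even where other genes were called. Replicate numbers above 2 occurred only among the lines, so the replicate block compared only lines 3 and 28 with the first and second NSC. In that fit of 2 pairs 3 genes were called: Pdgfd was not (2.36, limma adjusted p = 0.0968) and Pdgfb was (0.86, 0.014). It is not a check on the other lines. Over all genes the replicate block called 3032 in place of 2992 for lines against NSCs, on the same 2 pairs. It called 15175 in place of 15256 (tumors) and 892 in place of 1010 (F test). Among the tumor lines it left 1 gene called in line 1 against the other lines and 0 in line 123. The fit of all 15 tissue arrays also left 1 and 0, and median centring left 0 in line 123. Tumors against SubQ had Pdgfa at 0.13 with arrays centred. With the line as a random block Pdgfd had an adjusted p of 0.0554 there; Pdgfra in line 123 against SubQ had 0.0596 with quantile normalization, and Pdgfd in mutant lines against NSCs 0.0666 with trend and robust eBayes. The causes were not tested. Leaving out 1 array, the genes called numbered 2 to 4 for lines against NSCs, 3 to 4 for tumors against SubQ, 1 to 2 in the F test, 1 to 2 in line 1, 0 to 1 in line 31, 0 to 1 in line 59 and 0 to 2 in line 123 against the other lines, 3 to 4 in lines 31 and 59 against SubQ, 1 to 4 for mutant and 1 to 3 for WT lines against NSCs. Directions turned for uncalled genes: between p53 groups Pdgfc ran from -0.00013 to 0.33 and Pdgfd from -0.42 to 0.70, and between tumors and SubQ Pdgfa from -0.0433 to 0.0524 and Pdgfb from -0.0440 to 0.203.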
